A study of Mus musculus with 62 samples.

Results

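Sarcomere structure and assembly genes were followed in female mice with and without a wasting tumour, in the soleus, a calf muscle in which slow fibres are abundant. The 37 genes were taken from the expression table by symbol, out of 47643 genes, and comprise the proteins of the sarcomere and its assembly factors other than myosin chains and troponins. Of these, 36 reached 1 TPM (a relative transcript level already scaled for transcript length and for the total of the library) in at least 5 of 62 libraries and were tested together with 13529 genes in all. Nebl, which encodes the actin-binding protein nebulette, did not reach it, with group means of 0.203 to 0.392 TPM. The animals were 2 months old and had received cachectic melanoma cells (CAC, tumours that waste the body), non-cachectic melanoma cells (NCAC) or a mock injection (Con). Soleus was taken after 2, 4, 6 and 8 weeks, with 5 libraries in each of the 12 groups except CAC at 8 weeks, which had 7. All groups shared the sex, the age at the start and the muscle. The labels disagree on the strain, which is C57BL6/J in the sample entries and NCI Ath/nude in the description of the design, and the extraction text refers to LLC cells. The strain is therefore given here only as labelled. The libraries of a group are called biological replicates and are not tied to named animals.

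The sarcomere is the contractile unit of striated muscle. Thin filaments of actin and tropomyosin are anchored in the Z-disc by alpha-actinin, thick filaments of myosin are joined in the M-band by myomesins, and the giant proteins titin and nebulin run along them as a spring and as a scaffold. Leiomodins and tropomodulins set the growth of the thin filament at its pointed end, desmin filaments tie neighbouring Z-discs together, and a group of ankyrin repeat and LIM proteins at the Z-disc and the I-band is known to respond to stretch.

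The libraries of week 8 stood apart from the earlier ones, and the week cannot be told apart from how the animals of that week were handled. Against week 6, 12 of 12 macrophage markers and 10 of 10 adipocyte markers rose at week 8 in Con muscle, and the same counts rose in NCAC muscle. Of all tested genes, 54.1% rose in Con and 31.9% in NCAC over these weeks. The 12 macrophage markers summed to 1025 to 2794 TPM in CAC, 421 to 3187 TPM in NCAC and 1208 to 2361 TPM in Con at 8 weeks, and to 65.5 to 286 TPM over the 3 treatments at 6 weeks. Of 9 heart muscle markers, Nppa, Nppb and Myl7 were at 0 in 41, 44 and 59 of 62 libraries, while Myh6 reached 1621 TPM and the other 5 at most 19.6 TPM. The 9 markers summed to 731 to 1647 TPM over the 3 treatments at 6 weeks and to 116 to 860 TPM at 8 weeks. In 3 libraries (CAC replicate 4 at 2 weeks, NCAC replicate 3 at 6 weeks and CAC replicate 6 at 8 weeks) the fast myosin Myh4 reached at least 500 TPM. In tissue RNA, fewer cells of a type and less RNA per cell cannot be told apart. Fold changes are limma estimates on the log2(TPM + 1) scale, which understates the change of low genes, each p is adjusted by Benjamini-Hochberg over the 13529 genes, and a gene passed below 0.05. Rescaling each library by the median of ratios moved the median log2 fold change of all genes from 0.16 to 0.01 for CAC against Con at 6 weeks, so calls that rescaling ended or added are named beside the main ones.

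Levels of the sarcomere genes spanned more than 5 orders of magnitude in muscle without a wasting tumour. Over the 30 libraries of NCAC and Con at 2, 4 and 6 weeks, skeletal muscle actin Acta1 was the most abundant at 38367 ± 3880 TPM (SD, n = 30). The titin-binding cap of the Z-disc, Tcap, followed at 9855 ± 1535 TPM, and beta-tropomyosin Tpm2 at 7263 ± 506 TPM. Fast-fibre isoforms stood below their partners. Alpha-actinin 2 (Actn2) stood at 2598 ± 205 TPM against a median of 11.5 TPM for the fast-fibre Actn3, and slow myosin-binding protein C (Mybpc1) at 3031 ± 195 TPM against a median of 0.962 TPM for the fast Mybpc2. Titin (Ttn) had 289 ± 43.0 TPM, and nebulin (Neb) ran from 347 to 565 TPM. Among the least abundant were cardiac actin Actc1 at 39.4 ± 13.4 TPM, the M-band linker Obsl1 at 18.9 ± 2.15 TPM, and Igfn1, an immunoglobulin and fibronectin domain protein of the Z-disc, at 5.36 ± 1.42 TPM. The members together took a median of 7.38% to 8.43% of all TPM in the 9 groups of weeks 2 to 6. At 8 weeks their share was 5.74% in CAC, 4.21% in NCAC and 4.82% in Con.

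The comparison of CAC with Con gave its most calls among these genes at 6 weeks. Genes for Z-disc and desmin-linked proteins (Des, Ankrd2, Igfn1, Myoz2, Actn2, Xirp2) and for the giant proteins Ttn and Neb rose in CAC against Con, and the leiomodin gene Lmod3 fell. In all, 8 of 36 members rose, where 23.5% of all tested genes rose, and 1 fell, where 3.87% fell, so the counts are near those of all genes. The median log2 fold change was 0.26 over the members and 0.16 over all genes. Against NCAC, 8 members rose (27.8% of all genes) and 1 fell (4.86%), beside 32.6% of all genes in either direction. That comparison shares the CAC libraries with the first, and its rising members were Ankrd2, Des, Flnc, Myoz2, Igfn1, Lmod2, Actn2 and Mybpc1, with Lmod3 again the 1 that fell. Markers of other cells moved over the same comparison, with 8 of 12 macrophage and 7 of 10 adipocyte markers higher in CAC than in Con. Of 10 tendon cell markers 0 rose and 3 fell (median -0.46). Of 10 fibro-adipogenic progenitor markers 1 rose and 1 fell, and of 9 smooth muscle and pericyte markers 2 rose and 0 fell. The macrophage markers summed to 226 to 286 TPM in CAC, 65.5 to 209 TPM in NCAC and 133 to 163 TPM in Con, and the adipocyte markers to 1863 to 3247 TPM in CAC, 863 to 1689 TPM in NCAC and 1139 to 1330 TPM in Con. Their part in the result was not tested. After rescaling, 1503 genes rose and 1538 fell for CAC against Con, instead of 3181 and 524, and for CAC against NCAC 1950 rose and 1859 fell, instead of 3758 and 658. Of the 9 members that passed against Con, 5 kept their call after rescaling (Des, Ankrd2, Myoz2, Igfn1, Lmod3), and those 5 also kept it with each of the 10 libraries left out in turn. Against NCAC, 4 of the 9 kept it (Des, Ankrd2, Myoz2, Lmod3), while Igfn1 did not, and the chaperone gene Unc45b passed as lower (-0.25, SE 0.08, adjusted p = 0.0300).

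**Figure D1:**
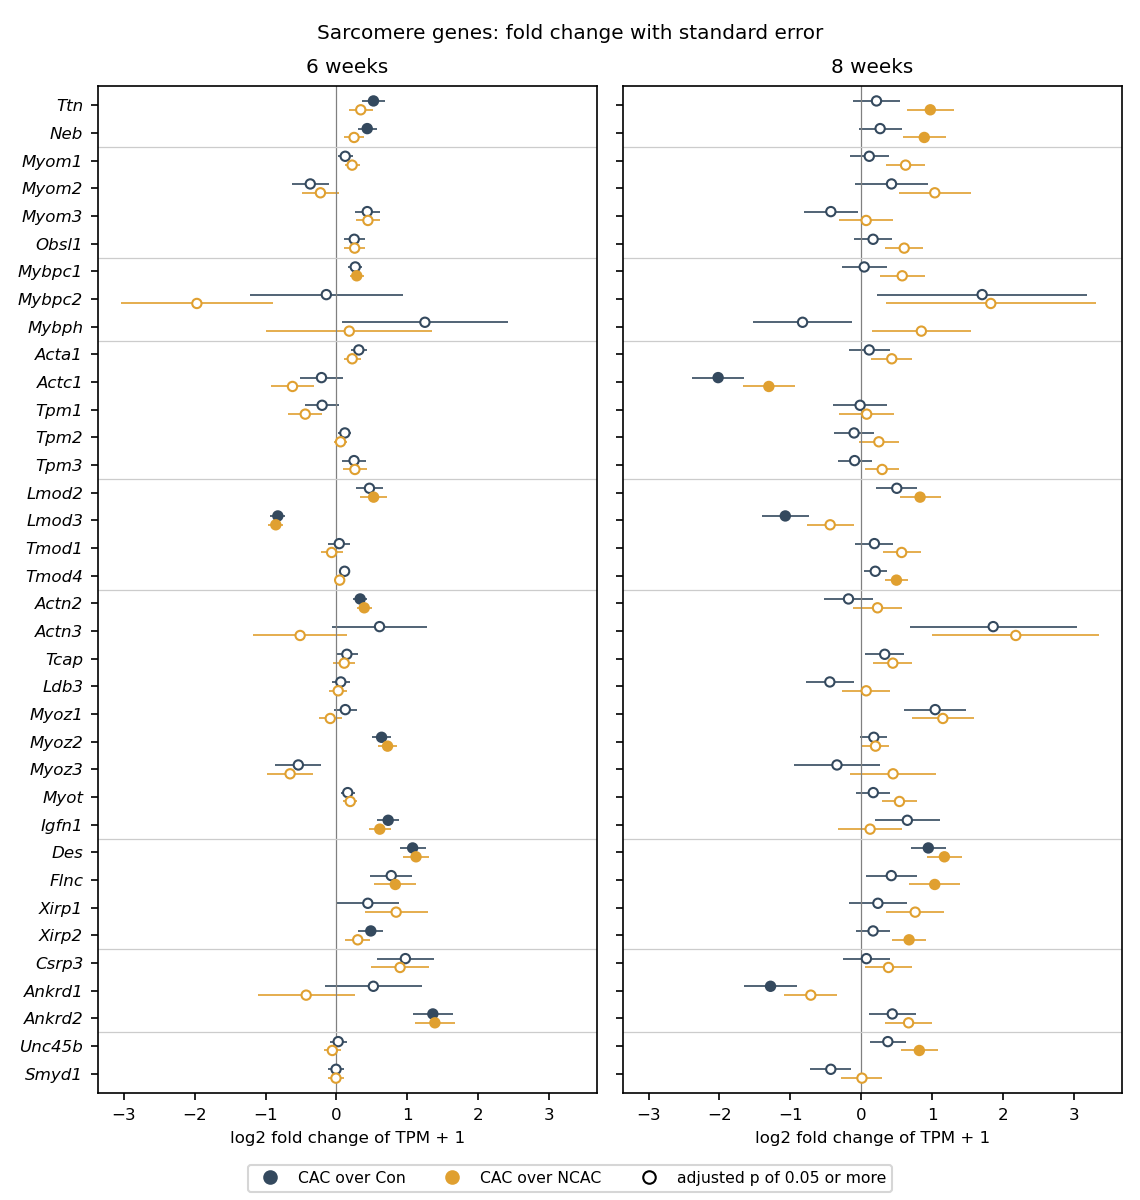
Log2 fold change of TPM + 1 for the 36 tested sarcomere genes (rows, grouped by role and divided by grey lines) in CAC over Con and CAC over NCAC, at 6 weeks (left) and 8 weeks (right). Bars are the standard errors of limma and filled points passed an adjusted p of 0.05; at 6 weeks Des and Ankrd2 lie furthest to the right among the filled points of CAC over Con and Lmod3 is the filled point on the left.

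Desmin (Des, chromosome 1, 75360329 to 75368579 on the plus strand of mm10) forms the intermediate filaments that join Z-discs to each other and to the membrane. At 6 weeks Des stood at 5548, 3142, 2683, 4325 and 2983 TPM in CAC libraries, against 1133, 1680, 1846, 1875 and 1872 TPM in NCAC and 1922, 1435, 1661, 1885 and 1685 TPM in Con. The lowest CAC library lay above the highest of both other groups. Its log2 fold change was 1.07 over Con (SE 0.18, adjusted p = 7.99e-04) and 1.12 over NCAC (SE 0.18, adjusted p = 4.06e-04), and 0.88 over Con after rescaling (SE 0.18, adjusted p = 0.00325). Group means of Des in CAC were 2357, 2742, 3736 and 2315 TPM at 2, 4, 6 and 8 weeks, beside 1753, 1951, 1718 and 1211 TPM in Con. At 2 weeks the excess over Con did not pass; at 4 weeks Des passed against NCAC (0.65, SE 0.13, adjusted p = 0.0204) and not against Con (0.48, SE 0.13, adjusted p = 0.0861). The 4-week call against NCAC was lost without CAC replicate 4 (adjusted p = 0.0561), NCAC replicate 1 (adjusted p = 0.0541) or NCAC replicate 2 (adjusted p = 0.0547).

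Ankrd2 (chromosome 19, 42036000 to 42045110, plus strand) encodes an ankyrin repeat protein that binds titin in the I-band and is raised by stretch of muscle. Its 6-week levels were 4200, 2782, 2915, 3454 and 2701 TPM in CAC, against 1048, 974, 908, 2726 and 1021 TPM in NCAC and 1828, 1028, 907, 1881 and 889 TPM in Con. All CAC libraries lay above all Con libraries, and NCAC replicate 4 lay within the CAC range. The log2 fold change was 1.36 over Con (SE 0.28, adjusted p = 0.00344) and 1.39 over NCAC (SE 0.28, adjusted p = 0.00223), the largest rise among the members in both comparisons. The same NCAC library was high in other stretch-responsive members, with 1387 TPM of Csrp3, the muscle LIM protein, where the other NCAC libraries had 247 to 282 TPM. It also held 225 TPM of the related ankyrin repeat gene Ankrd1, where the others had 5.06 to 18.9 TPM. Csrp3 had a log2 fold change of 0.97 over Con and 0.90 over NCAC at 6 weeks, and neither passed.

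The promoters of Des and Ankrd2, the members with the largest rises at 6 weeks, are shown together with that of Actc1, the member with the largest fall at 8 weeks. Sequences are from RefSeq (GRCm38.p6), 5′ to 3′ on the strand of the gene, and start 250 bases before the RefSeq start. They end before the first annotated exon in GENCODE M21. The Des stretch is chr1:75360042-75360291 on the plus strand, that of Ankrd2 chr19:42035777-42035999 on the plus strand and that of Actc1 chr2:114052888-114053125 on the minus strand. Capitals mark the motifs searched on both strands, which are the E-box CANNTG of myogenic factors, the M-CAT motif CATTCC, the CArG box bound by serum response factor and the MEF2 site.
Des: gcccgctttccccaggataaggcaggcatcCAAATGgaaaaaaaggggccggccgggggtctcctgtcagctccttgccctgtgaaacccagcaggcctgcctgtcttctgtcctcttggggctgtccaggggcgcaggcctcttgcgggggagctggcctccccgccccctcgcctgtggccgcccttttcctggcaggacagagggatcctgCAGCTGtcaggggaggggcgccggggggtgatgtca
Ankrd2: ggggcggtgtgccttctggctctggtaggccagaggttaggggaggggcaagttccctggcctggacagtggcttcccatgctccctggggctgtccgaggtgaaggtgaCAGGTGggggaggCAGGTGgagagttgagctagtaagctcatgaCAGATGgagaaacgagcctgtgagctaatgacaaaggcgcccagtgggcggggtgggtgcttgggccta
Actc1: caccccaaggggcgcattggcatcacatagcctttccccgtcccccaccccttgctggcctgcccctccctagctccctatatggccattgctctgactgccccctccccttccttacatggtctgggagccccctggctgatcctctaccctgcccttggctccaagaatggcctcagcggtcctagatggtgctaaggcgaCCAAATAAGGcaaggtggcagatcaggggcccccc
Des held 2 E-boxes and Ankrd2 held 3, and Actc1 held a CArG box whose first base lies 47 bases before the start. None of the marked motifs overlapped another. Over the full 250 bases, 28 of the 37 members had an entry. An E-box was found in 23 of these 28 promoters (82.1%) and in 66.0% of 27025 promoters of all genes. The shares for members and all genes were 25.0% and 12.6% for M-CAT, 14.3% and 1.40% for the CArG box, and 14.3% and 3.01% for the MEF2 site. A match describes letters only and is no evidence of binding.

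Among the other Z-disc genes, Myoz2 and Igfn1 rose at 6 weeks. Myoz2 (chromosome 3, 123006206 to 123035015, minus strand) encodes the slow-fibre calsarcin that tethers calcineurin to alpha-actinin. It had 1864, 1386, 1560, 1960 and 1332 TPM in CAC, against 825, 903, 1037, 1090 and 1027 TPM in NCAC and 1192, 870, 1050, 1228 and 866 TPM in Con. The groups did not overlap, and the log2 fold change was 0.64 over Con (SE 0.13, adjusted p = 0.00318) and 0.72 over NCAC (SE 0.13, adjusted p = 9.63e-04). Igfn1 (chromosome 1, 135953578 to 136006342, minus strand) stood at 9.10, 8.59, 7.34, 9.33 and 8.07 TPM in CAC, against 3.96, 4.83, 4.91, 6.69 and 5.94 TPM in NCAC and 2.89, 6.51, 4.87, 4.36 and 5.56 TPM in Con. Here too every CAC library was above every other library of the week, with a log2 fold change of 0.73 over Con (SE 0.15, adjusted p = 0.00352) and 0.61 over NCAC (SE 0.15, adjusted p = 0.00778). Removing a trend on transcript length ended the call of Igfn1 in both comparisons. That removal also takes out a shift of the whole library, and against NCAC rescaling alone ended the call as well. Actn2, which crosslinks thin filaments in the Z-disc, rose by a log2 value of 0.33 over Con (SE 0.10, adjusted p = 0.0276) and 0.39 over NCAC (SE 0.10, adjusted p = 0.0108). Rescaling ended both calls of Actn2, and the one over Con was also lost without CAC replicate 1 (adjusted p = 0.0796) or 4 (0.0675) or Con replicate 3 (0.0580) or 5 (0.0706). Counted without regard to a test, 7 of the 37 members had all CAC libraries above all Con libraries at 6 weeks. Only 1, Lmod3, had all below. Among the tested genes the shares were 13.3% above and 2.31% below. The 7 include Nebl, which was not tested, at 0.294 to 0.496 TPM in CAC and 0.162 to 0.279 TPM in Con. The count of 7 and the 13.3% therefore rest on different filters.

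Lmod3 was the only member that fell in CAC at 6 weeks. It encodes leiomodin 3, a nucleator of the thin filament that skeletal muscle needs for filaments of normal length (chromosome 6, 97238534 to 97252759, minus strand). The CAC libraries had 120, 149, 153, 199 and 164 TPM, against 284, 300, 303, 259 and 263 TPM in NCAC and 246, 281, 285, 273 and 295 TPM in Con. The highest CAC library lay below the lowest of both other groups. The log2 fold change was -0.83 against Con (SE 0.11, adjusted p = 5.97e-05) and -0.86 against NCAC (SE 0.11, adjusted p = 3.30e-05). After rescaling it was -1.02 (SE 0.11, adjusted p = 2.37e-05) against Con. The lower level was seen in some CAC libraries at 4 weeks, with 252, 134, 273, 153 and 280 TPM, where Con had 326, 320, 298, 292 and 253 TPM (-0.51, SE 0.18, adjusted p = 0.149). At 8 weeks Lmod3 ran from 45.3 TPM to 219 TPM in CAC with a median of 87.9 TPM, against 72.3, 239, 147, 76.5 and 152 TPM in NCAC and 227, 142, 232, 206 and 175 TPM in Con. That fall passed against Con (-1.07, SE 0.33, adjusted p = 0.0479) with overlapping groups, and 11 of 12 leave-outs ended the call, with adjusted p up to 0.109 (without Con replicate 3) and 0.00797 without CAC replicate 3. Against NCAC it did not pass (-0.44).

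The other leiomodin of striated muscle, Lmod2, had 2465, 1541, 1024, 1817 and 1272 TPM in CAC at 6 weeks, against 1094, 1123, 1337, 1135 and 784 TPM in NCAC and 1265, 1287, 985, 1049 and 1066 TPM in Con. It rose against NCAC (0.52, SE 0.19, adjusted p = 0.0451) and did not pass against Con (0.46), and rescaling ended the call. The call was also lost in 7 of 10 leave-outs, at adjusted p up to 0.130 (without CAC replicate 1). The share of Lmod3 in the sum of both genes does not depend on the scaling of a library; this pair was chosen after its values were seen, so the share is given with no test. At 6 weeks it was 4.63%, 8.83%, 13.0%, 9.85% and 11.4% in CAC, against 20.6%, 21.1%, 18.5%, 18.6% and 25.1% in NCAC and 16.3%, 17.9%, 22.4%, 20.7% and 21.7% in Con. Over 2, 4, 6 and 8 weeks the median share was 20.3%, 14.0%, 9.85% and 8.4% in CAC and 21.3%, 19.0%, 20.7% and 22.2% in Con. CAC replicate 3 of week 8 stood out with 21.7%, within the Con range of 18.7% to 23.6%. The pointed-end caps Tmod1 and Tmod4 did not pass at 6 weeks against either group.

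**Figure D2:**
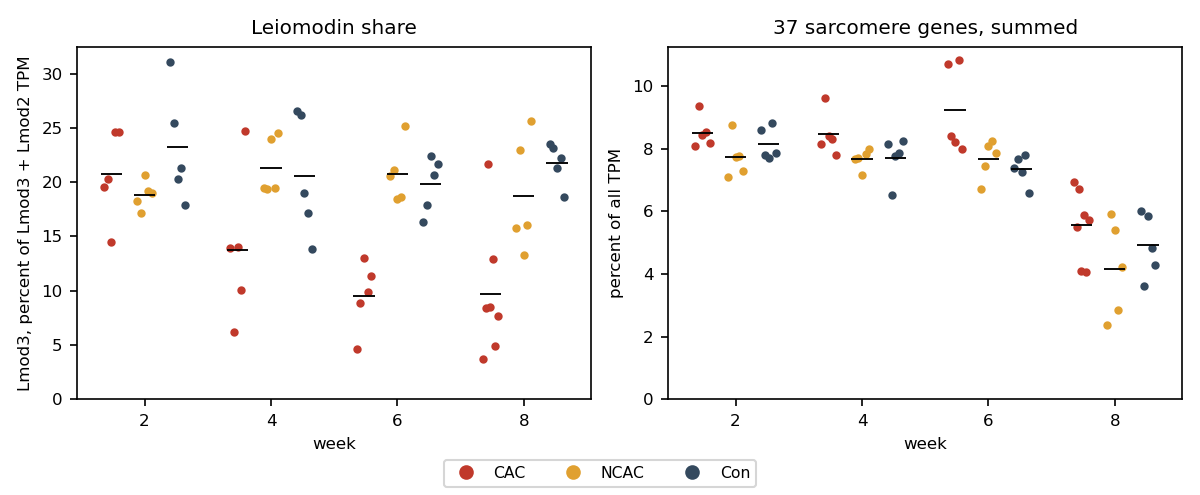
Left, Lmod3 as a percentage of Lmod3 plus Lmod2 TPM by week; right, the 37 sarcomere genes as a percentage of all TPM. Points are libraries of CAC, NCAC and Con and bars are group means; the 5 CAC libraries at 6 weeks (4.63% to 13.0%) lie below every NCAC and Con library of that week on the left, and all groups are lower at 8 weeks on the right.

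The giant proteins and the Xin repeat gene Xirp2, whose product binds actin filaments at sites of Z-disc attachment and repair, gave calls at 6 weeks that were less stable. Ttn had 476, 377, 367, 420 and 281 TPM in CAC, against 303, 339, 342, 274 and 245 TPM in NCAC and 354, 248, 235, 185 and 329 TPM in Con. Its groups overlapped, and the log2 fold change over Con was 0.52 (SE 0.17, adjusted p = 0.0320). Neb rose by 0.43 on the log2 scale over Con (SE 0.14, adjusted p = 0.0281). Xirp2 had 771, 415, 515, 594 and 454 TPM in CAC, against 384, 438, 426, 648 and 338 TPM in NCAC and 473, 352, 380, 329 and 397 TPM in Con, and rose over Con by 0.48 (SE 0.17, adjusted p = 0.0495). All 3 calls were lost after rescaling. Leaving out 1 library ended the call of Ttn in 6 of 10 cases, of Neb in 6 and of Xirp2 in 7. The libraries concerned for all 3 genes were CAC replicates 1 and 4 and Con replicates 2, 3 and 4, and the highest adjusted p came without CAC replicate 1, at 0.0948 for Ttn, 0.0848 for Neb and 0.146 for Xirp2. Over NCAC none of Ttn, Neb and Xirp2 passed. Filamin C (Flnc), an actin crosslinker of the Z-disc periphery, passed over NCAC (0.83, SE 0.30, adjusted p = 0.0424) and not over Con. Rescaling ended that call, as did 7 of 10 leave-outs (adjusted p up to 0.117, without CAC replicate 1), and without NCAC replicate 4 the adjusted p was 2.11e-04. Mybpc1 passed over NCAC by 0.29 (SE 0.10, adjusted p = 0.0388), and its call was likewise lost after rescaling. It was also lost in 6 of 10 leave-outs, at adjusted p up to 0.106 (without CAC replicate 1).

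**Figure D3:**
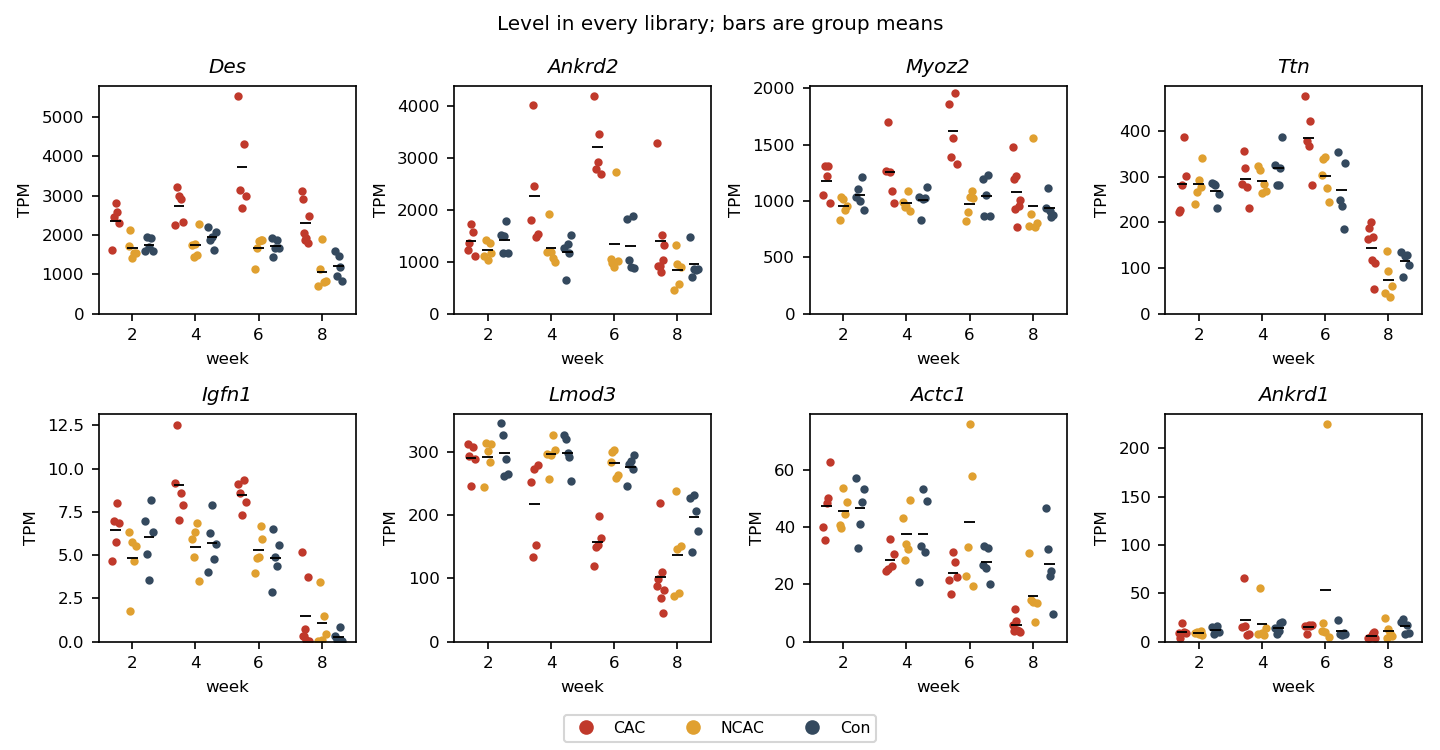
TPM of 8 sarcomere genes in every library by week (2, 4, 6 and 8), with CAC, NCAC and Con side by side and bars at group means. Within week 6, the CAC means of Des, Ankrd2, Myoz2 and Igfn1 are the highest of the 3 treatments and that of Lmod3 is the lowest; Ttn and Igfn1 are lower in all treatments at 8 weeks, and Actc1 is lowest in CAC at 8 weeks, at 3.46 to 11.5 TPM.

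At 2 and 4 weeks few members had changed. For CAC against Con at 2 weeks limma called 0 members and 0.0% of all genes, with 1 member and 1315 genes at an unadjusted p under 0.05. Against NCAC at 2 weeks 0 members passed as higher (0.399% of all genes) or in either direction (0.503%), with 8 at an unadjusted p under 0.05. In 2 members, Actn2 and Tmod4, all CAC libraries lay above all NCAC libraries (3.48% of all genes). At 4 weeks 0 members passed against Con (1.03% of all genes) and 10 had an unadjusted p under 0.05, among them Des, Ankrd2 (0.87), Igfn1 (0.59), Myoz2 (0.30) and Lmod3 (-0.51). Against NCAC at 4 weeks 3 members rose (5.11% of all genes), which were Des, Igfn1 (0.63, SE 0.18, adjusted p = 0.0496) and Tmod4 (0.17, SE 0.05, adjusted p = 0.0492). Myoz3, a fast-fibre calsarcin, fell (-1.01, SE 0.24, adjusted p = 0.0301), beside 0.732% of all genes, so 4 members passed in either direction, beside 5.84% of all genes. The calls of Igfn1 and Tmod4 were each lost in 8 of 10 leave-outs and that of Myoz3 in 5, with the highest adjusted p at 0.121 for Igfn1 without CAC replicate 2, 0.112 for Tmod4 and 0.0756 for Myoz3, both without NCAC replicate 2. Rescaling ended the calls of Igfn1 (0.54, adjusted p = 0.0896) and Tmod4 (0.06, adjusted p = 0.533), and with the replicate number as a block none of these 4 passed. The non-cachectic tumour gave 0 calls among the members against Con at any week in limma, apart from 19 members that passed as lower at 8 weeks with sample quality weights. The share of all genes called was 0.00739% at 2 and at 4 weeks and 0.0% at 6 and at 8 weeks, and 6, 0, 0 and 2 members had an unadjusted p under 0.05 at 2, 4, 6 and 8 weeks. At 8 weeks 35 of the 36 members had a negative log2 fold change, with a median of -0.42 over the members and -0.17 over all genes; after rescaling the member median was -0.26.

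At 8 weeks the cachectic tumour was accompanied by a fall of Actc1 and Ankrd1 and a rise of Des. Against Con 1 member rose (6.31% of all genes) and 3 fell (4.26%), with a median log2 fold change of 0.17 over the members and 0.00 over all genes. After rescaling 797 genes rose and 958 fell, instead of 854 and 576, and the same 4 members passed. In the same comparison 5 of 10 tendon cell markers fell (median -0.85), with sums of 231 to 549 TPM in CAC and 275 to 841 TPM in Con. Of 8 slow fibre genes 2 fell (median -0.65). Among 10 fast fibre genes Atp2a1 rose (1.24, adjusted p = 0.0441), while Casq1 was lower and did not pass (-1.19, adjusted p = 0.0567). The fast fibre genes summed to 9759 to 30930 TPM in CAC and 7191 to 25988 TPM in Con. In limma 0 of 12 macrophage and 0 of 10 adipocyte markers passed. The part of these in the result was not tested. Actc1 (chromosome 2, 114047282 to 114053548, minus strand) encodes cardiac alpha-actin, the actin of fetal and regenerating skeletal muscle. It ran from 3.46 TPM to 11.5 TPM in CAC with a median of 3.91 TPM, against 31.0, 14.6, 13.9, 6.83 and 13.6 TPM in NCAC and 46.4, 32.4, 22.7, 24.7 and 9.56 TPM in Con. Con replicate 5 and NCAC replicate 4 lay within the CAC range and the others above it. The log2 fold change was -2.02 against Con (SE 0.37, adjusted p = 0.00393), and this call was kept in 12 of 12 leave-outs. Against NCAC it was -1.30 (SE 0.37, adjusted p = 0.0191), and it was lost without NCAC replicate 1 (adjusted p = 0.0506). Ankrd1, the stretch-induced relative of Ankrd2, ran from 3.38 TPM to 10.1 TPM in CAC (median 4.96 TPM), against 24.8, 4.09, 12.7, 8.99 and 6.07 TPM in NCAC and 20.1, 23.8, 8.21, 17.6 and 9.18 TPM in Con. It fell against Con (-1.28, SE 0.38, adjusted p = 0.0392) with overlapping groups, did not pass against NCAC (-0.71), and lost its call in 7 of 12 leave-outs, at adjusted p up to 0.105 (without Con replicate 2). Scaled to 10 muscle fibre genes outside the sarcomere, a choice made after seeing the data, its adjusted p was 0.306.

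Des remained higher in CAC at 8 weeks while its level was lower in all 3 treatments than at 6 weeks. It ran from 1799 TPM to 3116 TPM in CAC with a median of 2059 TPM, against 702, 1149, 1890, 805 and 830 TPM in NCAC and 1607, 968, 1467, 1184 and 828 TPM in Con. All CAC libraries lay above all Con libraries, as for 3.98% of all genes, and NCAC replicate 3 lay within the CAC range. The log2 fold change was 0.95 over Con (SE 0.25, adjusted p = 0.0231) and 1.17 over NCAC (SE 0.25, adjusted p = 0.00450). Leaving out Con replicate 2 (adjusted p = 0.0619) or Con replicate 5 (adjusted p = 0.0660) ended the call over Con, as did the replicate number as a block. CAC replicates 6 and 7 have no library of the same number in the other groups, so they carry no weight under that block. Scaled to the 10 fibre genes, Des did not pass over Con (0.85, adjusted p = 0.144) or over NCAC (0.67, adjusted p = 0.213). Those 10 genes were not constant across the treatments at 8 weeks. Mb was lower in CAC than in Con (-1.19, adjusted p = 0.0237) and NCAC (-0.92, adjusted p = 0.0442), and Ryr1 was higher than in NCAC (1.09, adjusted p = 0.0205). Against NCAC 8 members rose at 8 weeks (19.3% of all genes) and Actc1 fell (2.68%), with a median of 0.55 over the members and 0.16 over all genes. Beside Des the risers were Flnc (1.04), Ttn (0.97), Neb (0.89), Lmod2 (0.83), the myosin chaperone gene Unc45b (0.82), Xirp2 (0.68) and Tmod4 (0.50), each with an adjusted p between 0.0313 and 0.0491. Those 7 calls were lost after rescaling, where 697 genes rose and 819 fell instead of 2606 and 362, and only Des (0.96, SE 0.28, adjusted p = 0.0377) and Actc1 (-1.47, SE 0.36, adjusted p = 0.0163) passed. Each of the 7 was also lost without NCAC replicate 1 or 4, at adjusted p of 0.0693 to 0.131. Ankrd2 and Myoz2 did not pass at 8 weeks against either group, with log2 fold changes of 0.44 and 0.18 over Con.

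Whether the effect of the tumour differed between weeks was tested as the difference of the CAC against Con fold change at 8 and at 6 weeks. Limma called 0 members in either direction, beside 0.192% of all genes, and 0 as higher, beside 0.0148%, and 3 members had an unadjusted p under 0.05. These were Actc1 (-1.81, SE 0.43, adjusted p = 0.0697), Ankrd1 (-1.80, SE 0.46, adjusted p = 0.0824) and Ankrd2 (-0.92, SE 0.42, adjusted p = 0.331). For Des the difference was -0.13 (SE 0.29) and for Lmod3 -0.24 (SE 0.35). With 1 spread over all 12 groups, and with sample quality weights, Actc1 passed.

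Of 35 other sarcomere genes, chosen as neighbours of the members in the same structures, 8 rose in CAC against Con at 6 weeks. Of all tested genes, 23.5% rose. Another 2 of the 35 fell, where 3.87% of all genes fell, so the counts are near those of all genes. The median log2 fold change of the 35 was 0.15. Pdlim5, a PDZ and LIM domain protein that binds alpha-actinin, averaged 371 ± 52.7 TPM in CAC and 229 ± 38.1 TPM in Con (SD, n = 5 each; log2 fold change 0.70, adjusted p = 0.00122). Hspb7, a small heat shock protein of the thin filament, averaged 3686 ± 828 TPM in CAC and 2131 ± 644 TPM in Con (0.81, adjusted p = 0.0102). The muscle RING finger gene Trim54 rose by 0.33 (adjusted p = 0.0185). The calpain gene Capn3, whose protease is held on titin, fell to 65.7 ± 11.0 TPM in CAC, against 88.0 ± 4.04 TPM in Con (-0.43, adjusted p = 0.00873). The formin gene Fhod3 fell to 6.63 ± 1.37 TPM in CAC, against 10.1 ± 0.794 TPM in Con (-0.56, adjusted p = 0.00857). At 8 weeks 0 of the 35 rose (6.31% of all genes) and 2 fell (4.26%). Those that fell were Fhod3 (-0.75, adjusted p = 0.0233) and Smpx, a small muscle protein linked to stretch. Smpx averaged 333 ± 60.6 TPM in CAC (SD, n = 7) and 541 ± 67.6 TPM in Con (SD, n = 5). Its log2 fold change was -0.71 (adjusted p = 0.00418). Among 11 transcriptional regulators of sarcomere genes, 1 rose at 6 weeks (23.5% of all genes). This was Mkl2, a coactivator of serum response factor, at 0.48 (adjusted p = 0.0221). At 8 weeks 2 regulators rose (6.31% of all genes), Mkl2 at 0.58 (adjusted p = 0.0200) and Mef2a at 0.33 (adjusted p = 0.0428). Effects of rescaling and of left-out libraries on these non-members were not computed.

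Pairs of isoforms, mostly slow and fast or adult and fetal, were described by their share within a library, with no test. The share of Actn3 in Actn3 plus Actn2 had group medians of 0.366% to 0.700% in all 12 groups. It reached 13.4% in CAC replicate 4 at 2 weeks, 9.29% in NCAC replicate 3 at 6 weeks and 77.5% in CAC replicate 6 at 8 weeks. These were also the 3 libraries in which Myh4 was abundant. CAC replicate 5 at 8 weeks had 12.8% without high Myh4. Mybpc2 in Mybpc2 plus Mybpc1 was high in the same 3 libraries, at 8.51%, 5.58% and 54.1%, with group medians of at most 0.180%. Without high Myh4, it was 4.96% in CAC replicate 5 and 2.95% in Con replicate 3 at 8 weeks. The share of Myoz1, the fast-fibre calsarcin, in Myoz1 plus Myoz2 at 6 weeks was 11.2% to 20.8% in CAC, against 20.4% to 33.4% in NCAC and 15.1% to 29.5% in Con. At 8 weeks its median was 25.8% in CAC, against 16.6% in NCAC and 19.0% in Con, with overlapping ranges. Myom2 in Myom2 plus Myom3, fast and slow M-band myomesins, had 8-week medians of 43.6% in CAC, 25.4% in NCAC and 29.4% in Con with overlapping ranges. Tpm1 in Tpm1 plus Tpm3 had 8-week medians of 19.8% in CAC, 24.2% in NCAC and 26.7% in Con. Actc1 made up 0.0121% to 0.0351% of Actc1 plus Acta1 in CAC at 8 weeks, against 0.0454% to 0.272% in NCAC and 0.0451% to 0.173% in Con. The CAC range lay below both others.

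**Figure D4:**
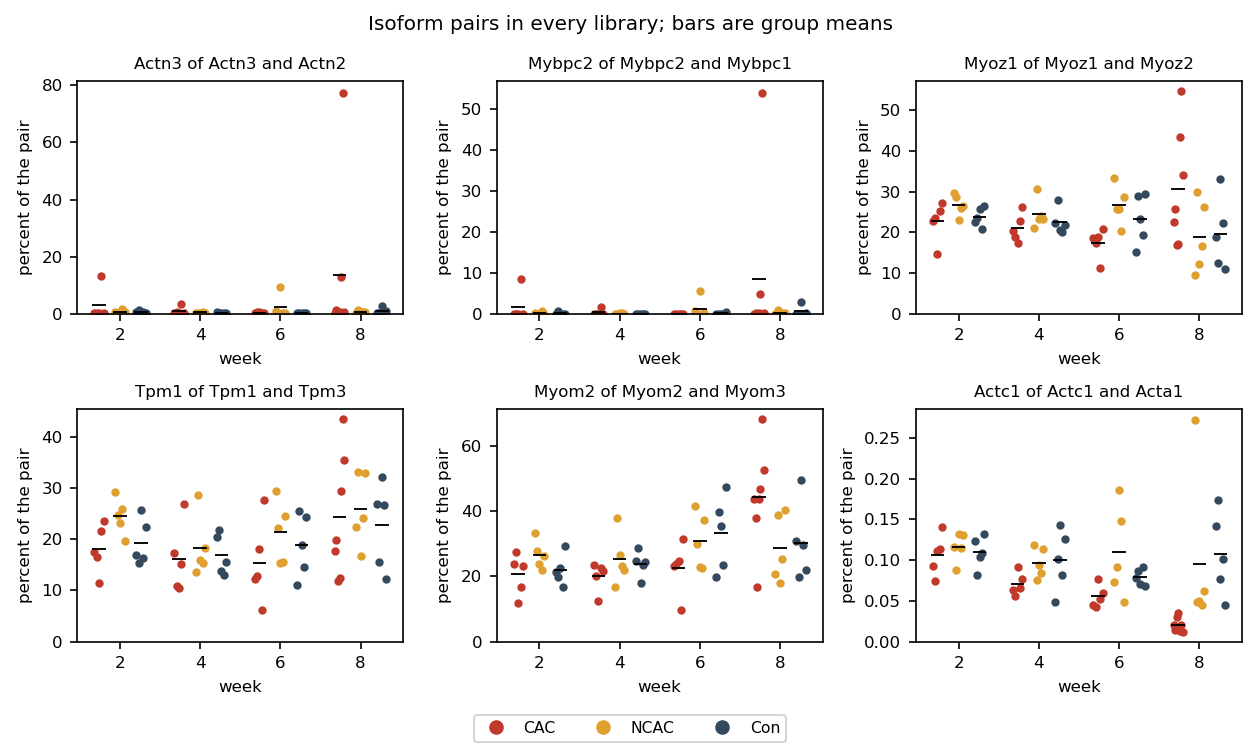
Share of the first gene of 6 isoform pairs in the sum of the pair (percent) in every library, by week and treatment, with bars at group means. Single libraries carry the high means of Actn3 and Mybpc2, and the CAC libraries of week 8 lie lowest for Actc1, at 0.0121% to 0.0351%.

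Between 6 and 8 weeks the sarcomere genes fell also where no wasting tumour was present. In Con 22 of 36 members were lower at 8 than at 6 weeks (9.65% of all genes) and 0 were higher (54.1%), beside 63.7% of all genes in either direction, with a median log2 fold change of -0.58 over the members and 0.29 over all genes. In NCAC 26 were lower (12.7% of all genes) and 0 higher (31.9%), beside 44.6% in either direction, with medians of -1.13 and 0.15. After rescaling, 27 members passed as lower in Con and 28 in NCAC, while all genes split into 4390 higher and 4180 lower in Con, instead of 7319 and 1305, and 3729 higher and 3498 lower in NCAC, instead of 4315 and 1715. In Con 17 of the 36 tested members had all 8-week libraries below all 6-week libraries (5.79% of all genes), and in NCAC 15 had (6.30%). Ttn had 136, 80.7, 127, 128 and 108 TPM in Con at 8 weeks, against 354, 248, 235, 185 and 329 TPM at 6 weeks (-1.20, SE 0.19, adjusted p = 2.59e-04). In NCAC it had 46.6, 137, 93.1, 36.5 and 61.6 TPM at 8 weeks, against 303, 339, 342, 274 and 245 TPM at 6 weeks (-2.14, SE 0.30, adjusted p = 0.00115). The groups did not overlap in either treatment. Igfn1 had 0.306, 0.0799, 0.0777, 0.819 and 0.0435 TPM in Con at 8 weeks, against 2.89, 6.51, 4.87, 4.36 and 5.56 TPM at 6 weeks (-2.21, SE 0.20, adjusted p = 6.28e-06), the largest fall among the members there. Myom1, which crosslinks thick filaments in the M-band, averaged 306 ± 75.9 TPM at 8 and 616 ± 16.4 TPM at 6 weeks in Con (SD, n = 5 each; -1.04, SE 0.16, adjusted p = 1.70e-04). Myoz2 and the stretch-responsive genes Csrp3, Ankrd1 and Ankrd2 did not pass in either treatment on the deposited scale. Rescaling added 5 calls in Con, all lower, which were Myoz2 (-0.50, adjusted p = 0.00390), Ankrd2 (-0.79, adjusted p = 0.0296), Acta1 (-0.85, adjusted p = 0.0101), Myoz1 (-0.88, adjusted p = 0.0380) and Tmod4 (-0.56, adjusted p = 0.00287). In NCAC it added Myoz1 and Tpm1, also lower.

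By role, all 4 M-band genes and both giant protein genes were lower at 8 weeks in Con and in NCAC, as were both myosin assembly genes, Unc45b and the methyltransferase gene Smyd1. Of the 9 tested Z-disc genes 5 were lower in Con and 6 in NCAC, of the 5 thin filament genes 2 and 4, and of the 4 pointed-end genes 2 and 4. The M-band calls of Myom2 and Obsl1 in Con were lost in 6 and 5 of 10 leave-outs, at adjusted p up to 0.0912 for Myom2 (without the 8-week replicate 5) and 0.0628 for Obsl1 (without the 6-week replicate 3). In NCAC the calls of Des (7 of 10), Acta1 (6), Tmod4 (5), Actc1 (4), Myoz3 (3) and Flnc (2) were lost in some leave-outs. The highest adjusted p was 0.109 for Des without the 8-week replicate 1, and without the 8-week replicate 4 it was 0.0793 for Acta1, 0.0710 for Tmod4, 0.0694 for Actc1, 0.0520 for Myoz3 and 0.0543 for Flnc. The other calls of both treatments were kept in every leave-out. The longer transcripts tended to have the lower fold change. Across the 36 members the correlation of the log2 fold change with log2 transcript length was Pearson r = -0.44 and Spearman rho = -0.56 in Con, and -0.69 and -0.65 in NCAC, given as a description over genes of the same libraries. For CAC against Con at 6 weeks it was 0.02 (Pearson). With the length trend removed, which also takes out a shift of the whole library, 27 members passed in Con and 28 in NCAC. They include all 22 and all 26 of the reported fit. Muscle fibre genes outside the sarcomere moved alongside, with 4 of 10 lower in Con (median -0.55) and 8 of 10 in NCAC (median -0.97). Scaled to the geometric mean of those 10 genes, Con had 4 members lower (Igfn1 -2.03, Ttn -0.66, Myom1 -0.50, Actn2 -0.46) and 3 higher (Mybph 1.62, Ankrd1 1.07, Csrp3 0.70). NCAC had 5 lower (Igfn1 -1.41, Ttn -1.19, Xirp2 -0.73, Myom1 -0.50, Neb -0.46) and 1 higher (Myoz2 0.88). On that scale the member median was -0.04 in Con. The macrophage, adipocyte and fibro-adipogenic progenitor markers rose over the same weeks, the last with 9 of 10 in each treatment. Of all genes, 54.1% rose in Con and 31.9% in NCAC. The part of these markers in the change was not tested.

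**Figure D5:**
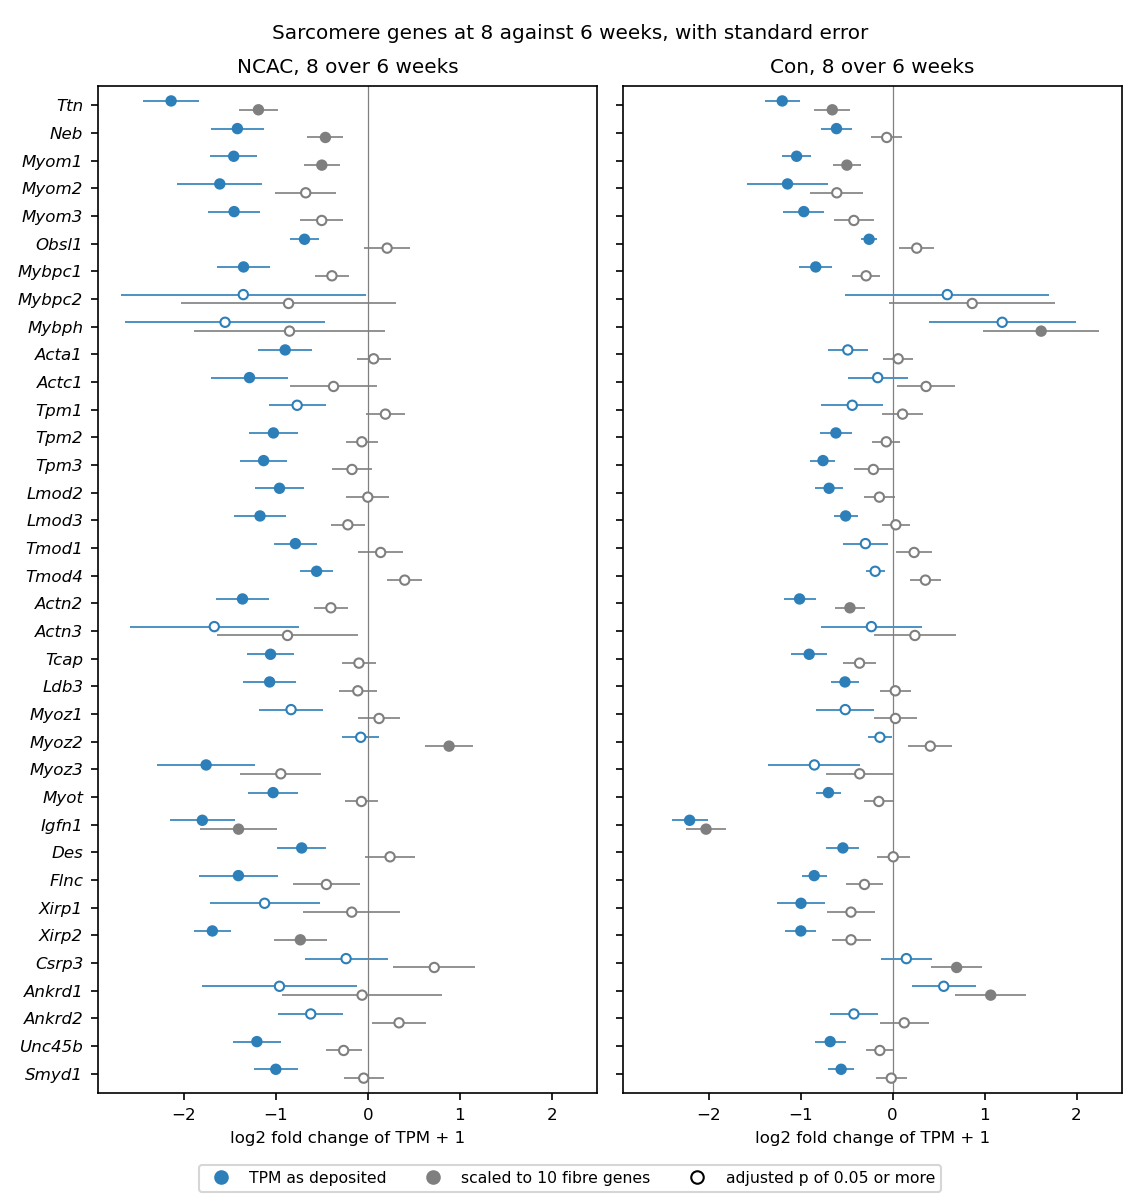
Log2 fold change of TPM + 1 at 8 over 6 weeks for the 36 tested sarcomere genes in NCAC (left) and Con (right), as deposited (blue) and scaled to 10 muscle fibre genes outside the sarcomere (grey). Bars are standard errors and filled points passed an adjusted p of 0.05; the blue points lie mostly below 0, with 26 filled in NCAC and 22 in Con, and the grey points lie around 0 with Ttn and Igfn1 still lower in both.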

How the data were processed

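Stranded mRNA libraries of 62 soleus samples were sequenced, per the labels' protocols. The labels gave each sample its group and week. The TPM values were computed and deposited by the authors on the mm10 build, per the submitters' processing notes. Which aligner and quantifier were used is not given in the sources used here. Because TPM keeps no read depth, depth is unknown, and neither counting intervals nor detection limits are given.

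Of 47643 genes, 13529 with at least 1 TPM in at least 5 libraries were tested on log2(TPM + 1) with limma 3.58.1 (R 4.3.3), with an intensity trend and 1 mean per group. The 3 groups of a week were fitted together, 8 against 6 weeks from the 2 groups compared, and the difference of effects from 4 groups. A gene passed at a Benjamini-Hochberg adjusted p under 0.05. The fit was tried on simulated data with independent normal noise for each gene. These held no shift shared by the genes of a library, so the trial does not cover such shifts. Values in every library are given for members passing in CAC against Con at 6 or 8 weeks, up to 6 in each direction; of the other sarcomere genes up to 6 with the smallest adjusted p were named.

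Alternatives were a pseudocount of 0.1, no filter, median-of-ratios rescaling, 1 spread over 12 groups, fitting only the groups compared, blocking on the replicate number, weighting samples by quality, removal of a length trend, dropping the libraries in which Myh4 reached 500 TPM, and leaving out each library. Samples were treated as unpaired. Positions and lengths are from GENCODE M21 (mm10), with a length for 96.7% of tested genes. The members and lists were chosen with earlier results of these data known.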

Additional observations from a re-analysis of the deposited data

Results flagged for a closer look

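Of 432 combinations of a tested member and a group, 31 held a library whose gap to its nearest neighbour on the log2(TPM + 1) scale was large for the range of the group by Dixon's test at the 95% level. Chance flags about 1 in 20 such groups, and the 31 were spread over 21 libraries. The values concerned are given as levels, with no explanation.

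The fast-fibre genes stood apart in single libraries. Mybpc2 was high in CAC replicate 4 at 2 weeks (294 TPM), Con replicate 2 at 2 weeks (22.4 TPM), CAC replicate 4 at 4 weeks (51.8 TPM) and Con replicate 1 at 4 weeks (2.56 TPM). Actn3 was high in CAC replicate 4 (482 TPM), NCAC replicate 4 (44.7 TPM) and Con replicate 2 (34.1 TPM) at 2 weeks and in NCAC replicate 3 at 6 weeks (277 TPM).

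The stretch-responsive and Z-disc periphery genes did so in another set. NCAC replicate 4 at 6 weeks was high in Csrp3 (1387 TPM), Ankrd2 (2726 TPM) and Flnc (1208 TPM). Con replicate 1 at 8 weeks was high in Csrp3 (665 TPM) and Ankrd2 (1475 TPM), and Con replicate 1 at 6 weeks in Ankrd1 (22.1 TPM) and Mybph (25.9 TPM). Ankrd2 was high in NCAC replicate 2 at 4 weeks (1917 TPM), and Ankrd1 was low in CAC replicate 2 at 6 weeks (7.52 TPM).

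The remaining cases were mostly structural genes. Low values were seen for Obsl1 in CAC replicate 6 at 8 weeks (5.74 TPM), Myom3 in CAC replicate 4 at 4 weeks (194 TPM), Myoz3 in CAC replicate 2 at 4 weeks (4.80 TPM), Myot in NCAC replicate 5 at 6 weeks (1445 TPM), Des in NCAC replicate 1 at 6 weeks (1133 TPM) and Tpm2 in the same library (6304 TPM). Lmod2 was low in Con replicate 2 at 8 weeks (470.4 TPM), Tmod1 in Con replicate 4 at 4 weeks (25.5 TPM), Mybph in NCAC replicate 3 at 8 weeks (0.0753 TPM) and Igfn1 in NCAC replicate 2 at 2 weeks (1.77 TPM), and Tpm1 in NCAC replicate 5 at 2 weeks (647 TPM). High values were seen for Acta1 in CAC replicate 2 at 4 weeks (45629 TPM), Myoz2 in NCAC replicate 3 at 8 weeks (1559 TPM) and Lmod2 in CAC replicate 1 at 8 weeks (2258 TPM).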

How the results depend on the processing

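The counts of members that passed depended on the setting in most comparisons with any. For CAC against NCAC at 4 weeks, 4 members passed in the reported fit, 0 with 1 spread over all 12 groups, with the compared groups alone and with the replicate block, 1 without a filter, and 2 after rescaling, with quality weights, scaled to fibre genes and with the length trend removed. For CAC against Con at 6 weeks, 9 passed in the reported fit, 5 without a filter, after rescaling, with 1 spread over all 12 groups and scaled to fibre genes, and 4 with the length trend removed. For CAC against NCAC at 6 weeks, 9 passed in the reported fit and 5 after rescaling, scaled to fibre genes and with the length trend removed. For CAC against Con at 8 weeks, 4 passed in the reported fit, 2 without a filter, 1 with the replicate block and 2 scaled to fibre genes. For CAC against NCAC at 8 weeks, 9 passed in the reported fit, 19 with 1 spread over all 12 groups, 24 with quality weights, and 2 without a filter, after rescaling, with the compared groups alone, scaled to fibre genes and with the length trend removed. For NCAC against Con at 8 weeks, 0 passed in the reported fit and 19, all lower, with quality weights. For 8 against 6 weeks, 22 members passed in Con in the reported fit and 7 scaled to fibre genes; 26 passed in NCAC, 16 without a filter and 6 scaled to fibre genes. For the difference of the CAC effect, 0 passed in the reported fit and 1 with 1 spread over all 12 groups and with quality weights. Without the 3 libraries of high Myh4, 8 passed for CAC against Con and 7 for CAC against NCAC at 6 weeks, 3 (without Lmod3) and 12 at 8 weeks, and 22 for 8 against 6 weeks in NCAC. The causes were not tested; a spread over all weeks mixes weeks of unequal spread by construction.

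Scaling to the 10 fibre genes, chosen after seeing the data, turned the sign of Tmod4 in CAC against NCAC at 8 weeks (-0.00096), of Obsl1 (0.26), Lmod3 (0.0352), Ldb3 (0.0296) and Des (0.0075) in Con at 8 against 6 weeks, and of Obsl1 (0.21), Acta1 (0.0629), Tmod1 (0.14), Tmod4 (0.40) and Des (0.24) in NCAC at 8 against 6 weeks.

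With 1 library left out, the number of members past the threshold ran from 0 to 2 for CAC against NCAC and stayed at 0 for CAC against Con at 2 weeks, from 0 to 1 for CAC against Con and 0 to 8 for CAC against NCAC at 4 weeks, from 5 to 14 for CAC against Con and 6 to 13 for CAC against NCAC at 6 weeks, and from 1 to 4 for CAC against Con and 1 to 13 for CAC against NCAC at 8 weeks. It was 0 for NCAC against Con at each week, 20 to 26 for 8 against 6 weeks in Con, 20 to 28 in NCAC, and 0 to 1 for the difference of effects.

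Replicate numbers mark no shared animal or batch in the labels. Samples of the same number correlated over all genes with a median r between -0.0682 and 0.0471 over the 4 weeks and single pairs from -0.666 to 0.477, so the numbers were not taken as pairs. With the replicate block 12 members passed for CAC against Con and 11 for CAC against NCAC at 6 weeks, and 1 (Tmod4) for CAC against NCAC at 2 weeks. The unknown depth of the libraries limits the low members most, among them Igfn1, Mybpc2, Mybph and Nebl.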
